A study of Rattus norvegicus with 6 samples.

Results

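The genes described here stood higher in every library of both BMPR2 mutants than in either control library of H9c2 cells, a myoblast line from embryonic rat heart. Levels are given as CPM, a gene's reads scaled to all reads counted in genes of the same library. A gene was kept when no mutant library, of 4, fell under 1 CPM and the lowest of them held 1.8 times or more the CPM of the higher of the 2 control libraries, after any control count under 3 had been raised to 3. Of 26404 genes, 23 met this rule. A higher level in all 4 mutant libraries at any fold was seen in 6.02%, and the 23 genes are 0.217%, of the 10587 genes that had at least 1 CPM in every mutant library.

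PolyA RNA was sequenced from 3 groups of 2 libraries each. They are called Empty Vector, BMPR2 tail domain mutant and, with the other domain affected, BMPR2 kinase domain mutant. The series describes the mutant cells as lacking the named domain of BMPR2 and uses the empty vector cells as the reference for both. All 6 libraries came from the same line, which one label spells Hc92. The labels do not give how the mutants were introduced, whether a group is 1 clone, or whether the 2 replicates were separate cultures. The spread between libraries that the p-values rest on may therefore be technical.

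Bone morphogenetic proteins are a family of secreted signals, and BMPR2 is one of their type II receptors. When a ligand gathers type I and type II receptors into a complex, the kinase domain of the type II receptor activates the type I receptor, which phosphorylates SMAD transcription factors. The long cytoplasmic tail of BMPR2 is not needed for that kinase step and binds other proteins, some of them regulators of the cytoskeleton. Mutations of the human gene underlie heritable pulmonary arterial hypertension.

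The deposited files give each gene as an Ensembl identifier with no name, and the rat gene table at hand matched 0 of the 26404 identifiers. No gene could therefore be called by its symbol or given a function, a position or a promoter. Bmpr2 itself and the marker genes of the line were not looked up, so the labels were not checked against them. The 23 genes are numbered from 1 to 23 in falling order of the ratio that chose them, lowest mutant CPM over highest empty vector CPM. Identifiers are given for the first 2 only.

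Total counts in genes ranged from 19116082 to 24936136 per library. Tail mutant replicate 2 stood apart in composition, with 16.0% of its counts in its 10 most counted genes against 19.9% to 22.1% in the other libraries. It was the highest of the 4 mutant libraries in 50.9% of the 12221 genes tested. Scaling by total counts placed the mutant libraries 0.11 log2 units below empty vector for the median gene tested (a median difference of -0.11, and -0.01 after scaling by TMM, which evens out such differences in composition). The 23 genes were all found again with TMM-scaled CPM, among 29 genes.

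ENSRNOG00000008057, number 1, had 18.8 and 15.8 CPM in the empty vector libraries, 82.95 and 240 CPM in the tail mutant, and 129.7 and 65.9 CPM in the kinase mutant. All 4 mutant libraries lay above both controls, but the mutant replicates differed from each other by 2.89-fold in the tail mutant and 1.97-fold in the kinase mutant. The mean was 17.3 ± 2.15 CPM in empty vector, while in the tail mutant it was 161.5 ± 111 CPM, and in the kinase mutant 97.8 ± 45.1 CPM (SD, n = 2 each). Its least ratio of a mutant to a control library was 3.50, the highest among the 23 genes.

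ENSRNOG00000012723, number 2, had 13.4 and 3.01 CPM in the empty vector libraries, 47.6 and 52.8 CPM in the tail mutant, and 45.9 and 56.8 CPM in the kinase mutant. Here the mutant libraries lay close together and the empty vector replicates were 4.47-fold apart. The empty vector mean was 8.22 ± 7.37 CPM, that of the tail mutant 50.2 ± 3.67 CPM and that of the kinase mutant 51.4 ± 7.69 CPM (SD, n = 2 each).

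**Figure D1:**
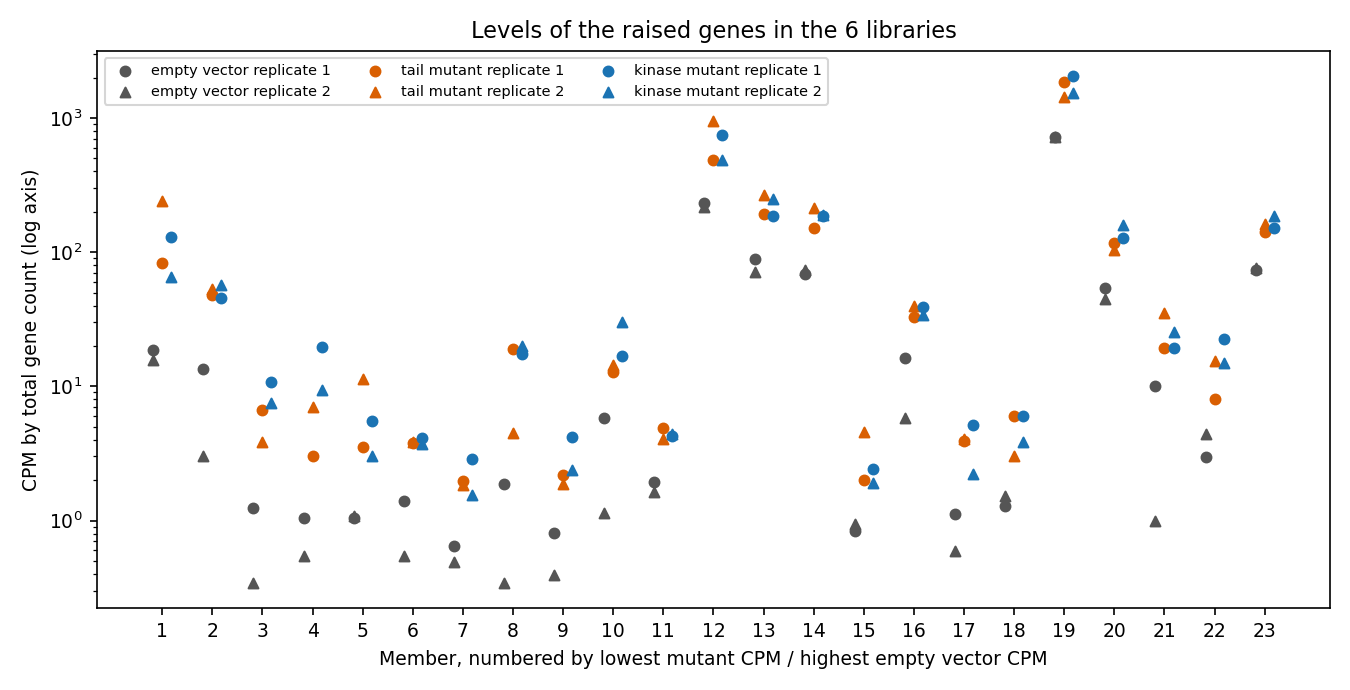
CPM by total gene count (log axis) of the 23 raised genes in each of the 6 libraries, with genes numbered on the horizontal axis by the ratio that chose them. Grey points are empty vector, orange the tail mutant and blue the kinase mutant, circles replicate 1 and triangles replicate 2. The grey points lie lowest for every gene by construction, and they are widest apart for numbers 2, 8, 10 and 21.

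The 23 genes were divided into 3 classes by their mean level in empty vector. CPM is not per gene length, so these classes describe how many reads stand behind a value and do not compare one gene with another. In 5 genes (numbers 12, 13, 14, 19 and 23) the empty vector mean was 50 CPM or more, and in 5 (numbers 1, 2, 16, 20 and 21) it lay between 5 and 50 CPM. In the other 13 it was under 5 CPM, which is 56.5% of the raised genes, where 20.9% of all genes tested had such a mean. The smallest count behind any of these values was 7 reads in an empty vector library and 34 reads in a mutant library.

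In the 5 genes with the most reads, the mean over all mutant libraries was between 2 and 3 times the empty vector mean. This fold ran from 2.13 to 2.97 among them, with a median of 2.59. In the tail mutant alone, number 12 reached 3.19. Number 19, the most counted of all, had 727.9 and 719.8 CPM in the empty vector libraries, 1841 and 1432 CPM in the tail mutant, and 2055 and 1550 CPM in the kinase mutant. Replicate 1 was the higher in both mutants. This gene alone held between 40.1% and 58.0% of the reads of the 23 genes in a library.

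Number 12 had 231 and 216 CPM in the empty vector libraries, 483 and 945 CPM in the tail mutant, and 749 and 483 CPM in the kinase mutant. The higher values were tail mutant replicate 2 and kinase mutant replicate 1, the same pair of libraries as in number 1. In number 14 the levels were 69.3 and 73.7 CPM in the empty vector libraries, 152 and 215 CPM in the tail mutant, and 187 and 188 CPM in the kinase mutant. Number 13 had 89.2 and 70.8 CPM in the empty vector libraries, 191 and 269 CPM in the tail mutant, and 186 and 249 CPM in the kinase mutant. The spread within each group was thus smaller than the distance to empty vector in numbers 13 and 14.

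In both classes with fewer reads the median fold was larger and the median gap between the empty vector replicates wider. The fold of the mutant mean to the empty vector mean ran from 2.48 to 13.7 in the 13 genes under 5 CPM, with a median of 4.45, and from 2.56 to 7.50 in the 5 genes of the middle class, with a median of 4.53. The ratio of the higher to the lower empty vector replicate had a median of 1.90 under 5 CPM, 2.81 in the middle class and 1.06 in the class with the most reads. Number 8 had 1.88 and 0.345 CPM in empty vector, from 47 and 7 reads, 18.9 and 4.50 CPM in the tail mutant, and 17.5 and 20.2 CPM in the kinase mutant. Its tail mutant replicates differed 4.197-fold and its empty vector replicates 5.46-fold, so the 10.5-fold and 16.9-fold ratios of means in the tail and kinase mutants rest on uneven values. Number 21, in the middle class, had 10.03 and 0.986 CPM in the empty vector libraries, 19.4 and 35.5 CPM in the tail mutant, and 19.2 and 25.6 CPM in the kinase mutant, with the widest gap between controls of all 23, at 10.2-fold.

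Steadier values were found at low level too, in all libraries of number 11 but only in the mutant libraries of number 6. Number 11 had 1.92 and 1.63 CPM in the empty vector libraries, 4.87 and 4.08 CPM in the tail mutant, and 4.29 and 4.38 CPM in the kinase mutant. Number 6 had 3.78 and 3.87 CPM in the tail mutant and 4.15 and 3.74 CPM in the kinase mutant. Its empty vector libraries, at 1.40 and 0.542 CPM, were 2.59-fold apart. The mutant libraries of these genes, picked for their steady values, lay within a narrow band in both mutants.

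Over the 23 genes the ratio of means to empty vector had a median of 3.41 in the tail mutant (from 2.01 to 10.5) and 4.02 in the kinase mutant (from 2.25 to 18.3). Both were computed against the same 2 control libraries. These contrasts chose the genes, so what follows is a description. With edgeR's quasi-likelihood test and Benjamini-Hochberg adjustment over 12221 genes, all 23 passed the filter on low counts and 0 of 23 passed an adjusted p of 0.05 as higher in the tail mutant, where 0% of all genes did. The same held in the kinase mutant, with 0 of 23 and 0% of all genes. Before adjustment, all 23 had an edgeR p below 0.05 in the tail mutant, where 3.65% of all genes did so as higher, and by all 23 in the kinase mutant, where 5.25% did. DESeq2 called 16 of the 23 higher in the tail mutant (0.761% of all genes) and 20 in the kinase mutant (1.69% of all genes), and limma-voom called 0 in each (0% of all genes).

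The limit of 1.8-fold cut through a continuous range. The 3 genes just inside it had least ratios of 1.92, 1.84 and 1.84, and the 3 just outside had 1.798, 1.77 and 1.77. Of the 23 genes, 16 reached a least ratio of 2 and 3 reached a ratio of 3. At a limit of 1.5 there were 60 such genes and at 4 there were 0. The mirrored rule, at least 1 CPM in both empty vector libraries and every mutant library at least 1.8-fold lower, found 140 genes, and 47 at 4-fold. Its minimum of 1 CPM did not apply to the mutant libraries, so the counts of raised and lowered genes were drawn from unlike sets. With TMM-scaled CPM the numbers at 1.8-fold were 29 higher and 111 lower.

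**Figure D2:**
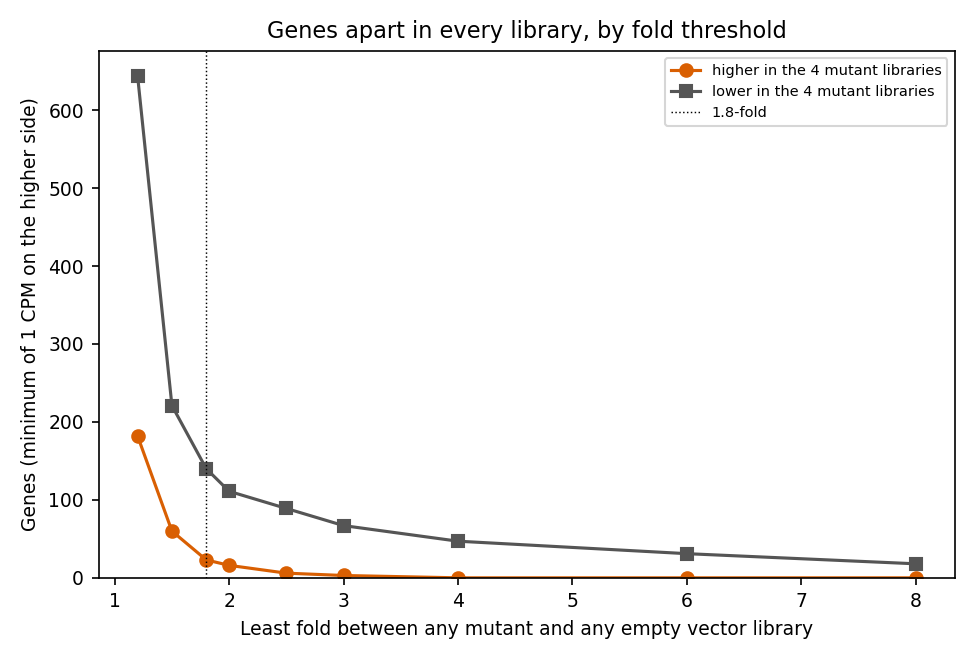
Number of genes (vertical axis) whose 4 mutant libraries were all higher (orange) or all lower (grey) than both empty vector libraries by at least the fold on the horizontal axis, with a minimum of 1 CPM on the higher side. At 1.8-fold, the dotted line, 23 genes were higher and 140 lower, and no higher gene was left at 4-fold.

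The rule did not set the mutants against each other, since it treated tail and kinase libraries alike. It did use the lowest of these same 4 libraries, so their values helped to choose the genes. By total counts the lowest was tail mutant replicate 1 in 7 of the 23 genes and replicate 2 in 7 (18.5% and 22.6% of all genes tested). Kinase mutant replicate 1 was lowest in 3 and replicate 2 in 6 (30.7% and 28.3%). The calls, p-values and intervals between the mutants are therefore a description too. The comparison asks whether these genes stood higher in one mutant than in the other. The most different gene was number 4, at 3.03 and 6.96 CPM in the tail mutant and 19.6 and 9.39 CPM in the kinase mutant, against 1.04 and 0.542 CPM in empty vector. Both kinase libraries lay above both tail libraries. The log2 difference of kinase minus tail mutant was 1.69 ± 0.52 (SE), with a 95% interval from 0.43 to 2.96. It had an unadjusted p of 0.0165 and did not pass after Benjamini-Hochberg adjustment in edgeR (adjusted p of 0.926), DESeq2 (0.504) or limma-voom (0.945).

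EdgeR called 0 of the 23 genes between the mutants, where 0% of all genes were called in either direction. DESeq2 called 0 of 23 as well, where it called 0.0818% of all genes higher and 0.0164% lower in the kinase mutant, and limma-voom called 0 of 23 and 0% of all genes. In edgeR, 1 of 23 had an unadjusted p below 0.05 with a higher level in the kinase mutant (2.16% of all genes) and 0 of 23 with a lower one (1.51% of all genes). An exact permutation test of 2 libraries against 2 cannot go below a two-sided p of 0.333.

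These results do not show that the mutants acted alike on the raised genes. In 7 of 23 the 95% interval of kinase minus tail lay wholly within a log2 difference of 1 to either side, that is, a 2-fold change was left out in both directions. For number 14 it ran from -0.28 to 0.61, and for number 13 from -0.48 to 0.60. In the other 16 a 2-fold difference in at least one direction lay inside the interval. Number 6, with its steady mutant values, was among them, with an interval from -0.92 to 1.26. For ENSRNOG00000008057 the log2 difference was -0.56 ± 0.50 (SE), with an interval from -1.79 to 0.67 (adjusted p of 0.926 in edgeR). It was 0.28 when tail mutant replicate 2, the library with the highest value, was left out, so that its sign depends on that library. For ENSRNOG00000012723 it was 0.16 ± 0.57 (SE), with an interval from -1.23 to 1.55 (adjusted p of 0.968 in edgeR).

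**Figure D3:**
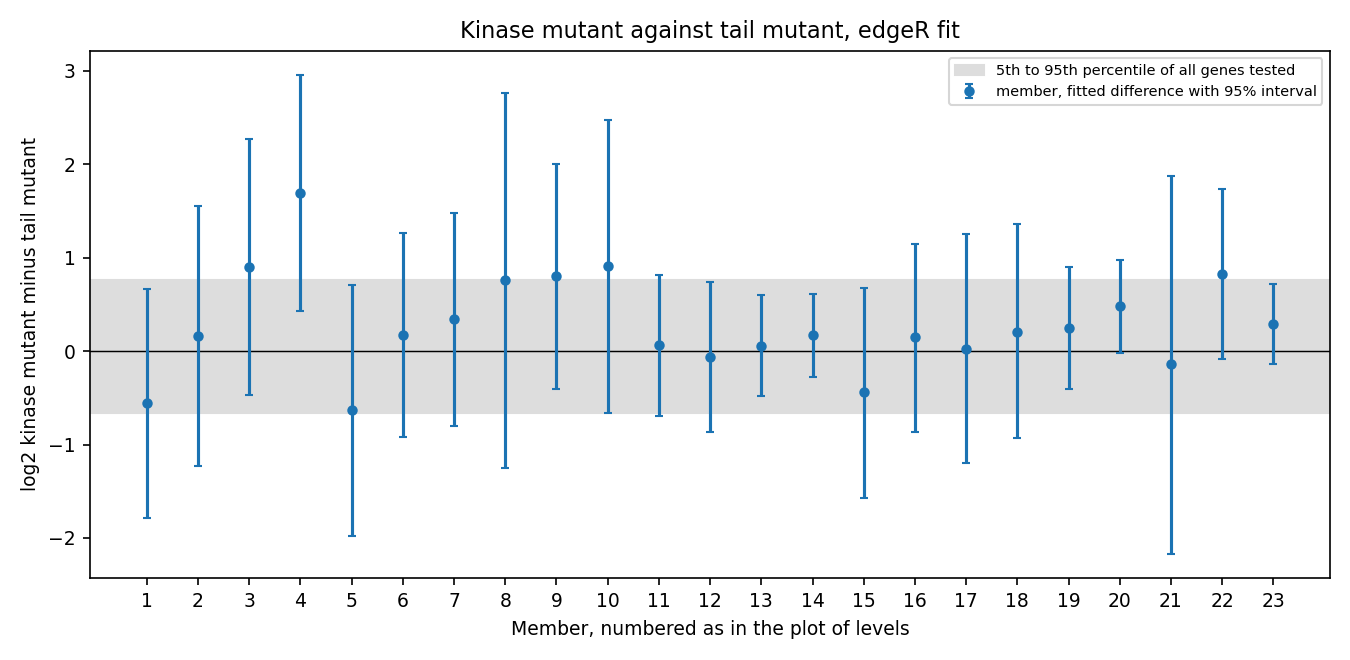
Fitted log2 difference of kinase minus tail mutant (vertical axis) for each of the 23 raised genes (horizontal axis, numbered by the ratio that chose them), with 95% intervals from the edgeR fit. The grey band spans the 5th to the 95th percentile of all 12221 genes tested, from -0.66 to 0.76, and number 4 is the gene whose interval lies wholly above 0.

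By sign alone, more of the raised genes were higher in the kinase mutant than in the tail mutant. The fitted difference was above 0 in 18 of the 23 genes, with a median of 0.17, where 49.0% of all genes tested were above 0 and their median was -0.01. The median size of the difference, whatever its sign, was 0.29 in the raised genes and 0.22 in all genes tested. On CPM by total counts, the kinase mean was above the tail mean in 15 of the 23 genes (34.1% of all genes tested). The count of 18 lay between 16 and 20 when any 1 of the 6 libraries was left out, and the share of all genes moved too. It was 16 without kinase mutant replicate 1 (46.7% of all genes) and 20 without tail mutant replicate 2 (52.3% of all genes). No test was made of this count, because the genes were chosen on these libraries.

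Both kinase libraries lay above both tail libraries in 5 of the 23 genes (numbers 3, 4, 9, 10 and 20), where 8.99% of all genes tested did so, and both lay below in 0, where 23.8% did. These shares are on CPM by total counts, on which the median gene tested was lower in the kinase mutant by 0.13 log2 units (-0.13). With TMM-scaled CPM the median gene was level, 9 of the 23 genes were higher without overlap (14.8% of all genes) and 0 lower (15.2% of all genes). Number 10, for example, had 12.8 and 14.3 CPM in the tail mutant and 16.7 and 29.95 CPM in the kinase mutant, against 5.77 and 1.13 CPM in empty vector. Number 20 had 118 and 104 CPM in the tail mutant and 127 and 160 CPM in the kinase mutant, against 54.3 and 45.1 CPM in empty vector. Its log2 difference of kinase minus tail was 0.48 ± 0.21 (SE), with an interval from -0.02 to 0.98. The opposite tendency was widest in number 5, at 3.56 and 11.4 CPM in the tail mutant and 5.54 and 3.01 CPM in the kinase mutant, with a log2 difference of -0.63 ± 0.56 (SE).

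The mutant library with the highest level varied from gene to gene. It was tail mutant replicate 2 in 8 of the 23 genes (50.9% of all genes), kinase mutant replicate 1 in 8 (17.2% of all genes), kinase mutant replicate 2 in 5 (15.8% of all genes) and tail mutant replicate 1 in 2 (16.1% of all genes). With TMM-scaled CPM, tail mutant replicate 2 was highest in 5 of the 23 genes and in 35.9% of all genes. Kinase mutant replicates 1 and 2 were then highest in 10 and 7 of the 23 (23.8% and 22.5% of all genes). Tail mutant replicate 1 was so in 1 (17.8%). Lowest by this scaling were tail mutant replicates 1 and 2 in 8 and 10 genes (19.0% and 34.3% of all genes). Kinase mutant replicates 1 and 2 were lowest in 0 and 5 (24.6% and 22.1%). In 9 of 23 genes by total counts, tail mutant replicate 2 lay above replicate 1 and kinase mutant replicate 1 above replicate 2. This was so in 35.2% of all genes tested. The reverse pair of differences was seen in 3 of the 23, and in 21.6% of all genes.

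The 2 empty vector libraries were far apart in some of these genes. They were at least 2-fold apart in 8 of the 23 genes, where 7.40% of all genes tested were. The tail mutant replicates were that far apart in 5 of 23 (15.6% of all genes) and the kinase mutant replicates in 2 of 23 (9.81% of all genes). Replicate 1 was the higher empty vector library in 17 of the 23 genes, where it was the higher in 62.0% of all genes. It was so in 9 of the 13 genes under 5 CPM, in all 5 of the middle class and in 3 of the 5 with the most reads, whose control values lay within 1.26-fold of each other. All these values entered the rule, and the part of low read numbers in the wider gaps was not tested.

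**Figure D4:**
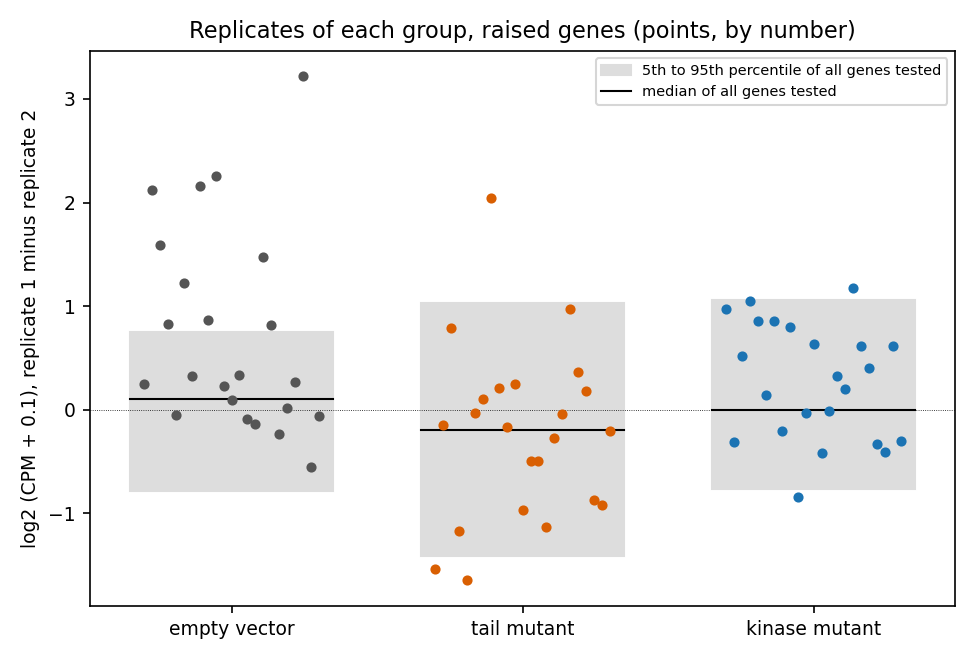
Difference of replicate 1 minus replicate 2 in log2 (CPM + 0.1) for the 23 raised genes (points, left to right by number) in empty vector, tail mutant and kinase mutant. Grey boxes span the 5th to the 95th percentile of all 12221 genes tested and black lines mark their medians, of 0.10, -0.19 and 0.00, and the empty vector points reach 3.22.

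Which library held the set small was seen by leaving each out, which can only add genes to the 23. Without empty vector replicate 1 the rule took 136 genes, and without empty vector replicate 2 it took 45. Without tail mutant replicate 1 or 2 it took 46 or 51, and without kinase mutant replicate 1 or 2 it took 27 or 43. The largest number of additional genes, 113, thus came when empty vector replicate 1 was not asked to lie below the mutants.

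The raised genes took a small part of all reads. Their summed level was 1326 and 1242 CPM in the empty vector libraries, 3187 and 3574 CPM in the tail mutant, and 3811 and 3103 CPM in the kinase mutant. Without number 19 the sums were 598 and 522 CPM in the empty vector libraries, 1346 and 2142 CPM in the tail mutant, and 1756 and 1554 CPM in the kinase mutant. The groups of mutant libraries overlapped in both sums. In bulk RNA a higher level in every cell and a larger share of cells with the gene on cannot be told apart.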

How the data were processed

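The authors deposited raw read counts per Ensembl rat gene, 1 table per library. Trimmomatic 0.33, STAR 2.4.0, HTSeq 0.6.1p1 and build Rnor_5.0 are named in the submitters' processing notes. Not given in the sources used here are the strand setting and the annotation release. The 5 rows that name no gene, left out throughout, held 15.4% to 17.5% of each total as reads in no gene and 27.3% to 31.5% as alignments that were not unique, which lowers the counts of genes with close copies. CPM used total gene counts. The test was edgeR 4.0.16 (R 4.3.3): filterByExpr (minimum count of 10), TMM, robust quasi-likelihood fit of all 6 libraries by group, Benjamini-Hochberg over 12221 genes, called below 0.05. The standard error is the log2 difference divided by the square root of F, and intervals use the moderated degrees of freedom. Replicate ratios are of plain CPM, except in the plot of replicate differences, which takes log2 of CPM plus 0.1. DESeq2 1.42.0 and limma-voom (limma 3.58.1), other scalings and filters, a replicate block and leaving out each library were alternatives. The fit of kinase against tail mutant was tested on simulated data.

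The genes and all lists were chosen with earlier results of these data known. The rule for named genes took list members, extremes of the ratio and of read number, and the smallest p between the mutants, with a symbol. As 0 identifiers matched a symbol, it printed the 2 identifiers with the highest ratio. Genes given by number follow the same extremes or were chosen after their values were seen. None of the 34 gene and marker lists, nor the promoter motifs, could be used. At these depths the floor of 3 counts lies between 0.120 and 0.157 CPM and touched none of the 23 genes. Floors cover counting error only.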

Additional observations from a re-analysis of the deposited data

Results flagged for a closer look

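Reads outside any annotated gene, a row that the comparisons do not use, took a larger part of the total over all rows in each mutant library than in either control. It took 16.1% to 17.5% in the 4 mutant libraries and 15.4% in both empty vector libraries. Among uniquely aligned reads alone the range was 22.6% to 25.3% against 21.3% and 22.5%. Its part in the levels of the raised genes was not tested.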

How the results depend on the processing

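The number of raised genes was 23 by the rule, 60 at 1.5-fold, 3 at 3-fold, 12 with a minimum of 5 CPM, and between 27 and 136 without any 1 library. It was 16 at 2-fold, 29 with TMM, 33 with RLE size factors and 23 with no floor. Higher in both kinase than in both tail libraries were 5 of the 23 genes by total counts (8.99% of all genes tested). This became 9 of 23 with TMM (14.8% of all genes) and 10 of 23 with RLE size factors (14.9% of all genes). By total counts it was 4 of the 16 genes at 2-fold and 2 of the 12 at a minimum of 5 CPM. For kinase against tail mutant, 0 of all genes were called in edgeR (448 at an unadjusted p below 0.05) and 12 in DESeq2. Against empty vector edgeR called 1 gene in each mutant, neither of them among the 23. For the tail mutant this became 248 with DESeq2, 0 with limma-voom, 9 with no filter, 0 with only the 4 libraries compared and 0 to 20 without 1 library. For the kinase mutant it became 361, 0, 2 and 0 in the same order, and 0 to 2 without 1 library. Of the 23 genes, 0 were called in edgeR in any comparison under any of these settings. The log2 difference of kinase minus tail changed sign for ENSRNOG00000008057 without tail mutant replicate 2 (0.276, the lowest value being -1.127 without kinase mutant replicate 1). It did so for ENSRNOG00000012723 without kinase mutant replicate 2 (-0.002, the highest being 0.305 without kinase mutant replicate 1). The causes were not tested.

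The labels number the replicates 1 and 2 in each group, but same-numbered libraries did not deviate together: across genes the deviations correlated at 0.102 (empty vector and tail), -0.117 (empty vector and kinase) and -0.331 (tail and kinase). With the replicate block edgeR called 2 genes against empty vector for each mutant and 0 between the mutants. In that fit 17 of the 23 genes had a positive kinase minus tail difference (49.5% of all genes). With crossed numbers and only the 4 libraries compared, chosen after seeing the data, it called 0 between the mutants and 1 for the kinase mutant against empty vector, where the same 4 libraries with no block gave 0 and 0.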
